A study of Homo sapiens with 27 samples.

Results

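NQO1, AKR1B10, TXNRD1, GCLM, GCLC, ALDH1A1 and ALDH3A1 encode enzymes that handle quinones, carbonyls, thioredoxin, glutathione and aldehydes, and their RNA 3′ ends were followed here across the A549R, A549 and H358 lung cancer lines. These 7 genes were chosen by name and position: every 3′ end listed in any library that overlapped the hg19 span of a gene on its own strand was taken. Overlapping ends of the 27 libraries were joined, and 111 of the resulting 233020 merged ends lay in the 7 genes. The end with the highest mean level in each gene is called its main end. The main ends of NQO1, TXNRD1, GCLM, GCLC and ALDH3A1 were listed in 27 of 27 libraries, that of AKR1B10 in 19 and that of ALDH1A1 in 18.

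NRF2, encoded by NFE2L2, is the transcription factor of the oxidant and electrophile response. KEAP1 holds it for degradation until reactive compounds modify KEAP1, and NRF2 then binds antioxidant response elements with a small MAF partner and raises genes for glutathione synthesis, thioredoxin reduction, NADPH supply and detoxification. Lung cancers often carry mutations that keep the pathway on, and A549 is a widely used line with an altered KEAP1; its part in the levels given here was not tested.

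Promoters of 5 of the 7 genes were matched in RefSeq (GRCh38.p14), as 6 entries because TXNRD1 has more than one start, and AKR1B10 and ALDH3A1 had no entry. The core of the antioxidant response element was searched as TGACNNNGC on both strands in the 250 bases before each gene start. It was present in 3 of the 6 entries, both of TXNRD1 and that of GCLM, and in 3830 of 35116 promoters of the same length, or 10.9%. GCLC is shown beside them as the partner subunit of GCLM, with no match in this window. Sequences are shown 5′ to 3′ along the gene, with the matches in capitals; those of the second TXNRD1 entry and of GCLM lie on the opposite strand. The matches start 99 and 102 bases before the gene start in TXNRD1 and 34 bases before it in GCLM.
TXNRD1, chr12:104215529-104215778, plus strand: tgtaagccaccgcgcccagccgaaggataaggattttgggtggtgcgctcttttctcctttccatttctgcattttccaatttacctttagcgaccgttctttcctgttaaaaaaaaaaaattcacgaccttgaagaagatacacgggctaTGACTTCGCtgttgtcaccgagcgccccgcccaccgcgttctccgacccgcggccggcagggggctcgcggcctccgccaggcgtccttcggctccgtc
TXNRD1, chr12:104286782-104287031, plus strand: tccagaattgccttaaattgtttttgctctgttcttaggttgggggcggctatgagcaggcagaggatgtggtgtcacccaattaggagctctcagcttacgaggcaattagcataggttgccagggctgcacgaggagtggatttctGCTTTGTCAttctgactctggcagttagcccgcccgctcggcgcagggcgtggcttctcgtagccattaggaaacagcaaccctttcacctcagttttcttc
GCLM, chr1:93909431-93909680, minus strand: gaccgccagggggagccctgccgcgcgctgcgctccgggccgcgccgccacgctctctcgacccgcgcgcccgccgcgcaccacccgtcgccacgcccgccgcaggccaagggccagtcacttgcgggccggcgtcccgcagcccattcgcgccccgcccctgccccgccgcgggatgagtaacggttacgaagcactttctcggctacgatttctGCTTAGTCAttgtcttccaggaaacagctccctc
GCLC, chr6:53545102-53545351, minus strand: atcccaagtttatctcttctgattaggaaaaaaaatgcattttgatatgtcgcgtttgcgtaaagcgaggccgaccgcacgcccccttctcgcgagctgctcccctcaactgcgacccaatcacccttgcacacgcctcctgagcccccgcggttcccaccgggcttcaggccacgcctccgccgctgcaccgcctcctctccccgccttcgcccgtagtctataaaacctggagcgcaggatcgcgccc

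The study measured polyadenylated RNA by 3′-seq, in which reads mark where transcripts end, and its stated purpose was to set ends inside genes against ends in the last exon during cisplatin response and resistance. The 9 groups of 3 libraries were A549R cytosol with cisplatin or DMSO, A549 heavy polysomes with cisplatin or DMSO, A549 cytosol with cisplatin or DMSO, and H358 whole cells with cisplatin, oxaliplatin or DMSO. Both platinum compounds were used at 100 µM and DMSO was the vehicle. A549R is read here as the cisplatin-resistant counterpart of A549; the labels name no genetic change, do not say whether it is 1 clone, and do not say whether libraries of a group came from separate cultures. The p-values therefore measure only the spread between these libraries, which may be technical.

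Library totals ran between 3024814 and 11997535 reads in listed ends. Levels are given as CPM, read counts scaled to library size (edgeR's TMM) over the 10283 ends listed in all 27 libraries. In 16 libraries the lists held 73.1% to 79.4% of the authors' peak numbers and in 11 they held 30.6% to 42.3%; the shorter ones were all A549 cytosol libraries, all H358 oxaliplatin libraries and both polysome libraries numbered 3. An end missing from a short list is not a count of 0. List length therefore cannot be told apart from oxaliplatin in H358, from A549R against A549, or from A549 cytosol against H358 with DMSO or cisplatin, and polysomes were of the long kind in 4 of 6 libraries where A549 cytosol was of the short kind in all 6. The epithelial markers KRT18 and EPCAM were listed in all 27 libraries and CDH1 in 18, COL1A1 of fibroblasts averaged 2.82 to 9.05 CPM by group, and no end of the blood marker PTPRC was listed. A549 libraries numbered 3 stood apart: EPCAM was 1.93 to 5.94 CPM in the 4 of them. It was 31.8 to 46.4 CPM in the 8 other A549 cytosol and polysome libraries. Fewer cells of a kind and less RNA per cell cannot be told apart in such bulk samples.

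The 5 ends that could be tested were higher in A549R and A549 cytosol than in H358 whole cells, and the other 2, of AKR1B10 and ALDH1A1, had at least 1077 CPM in every A549R and A549 library and were almost unlisted in H358. AKR1B10, an aldo-keto reductase that reduces retinal and other carbonyls, had 6415, 6476 and 2365 CPM in A549R cytosol with DMSO and 12380, 11280 and 4222 CPM in A549 cytosol with DMSO. In H358 its main end was listed in 1 of 9 libraries, with 7 reads (1.21 CPM) in the first DMSO library. AKR1B10 has a close paralogue next to it, and how reads were shared between them is not given, so its level is uncertain.

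ALDH1A1, a cytosolic aldehyde dehydrogenase that makes retinoic acid, had 2104, 1793 and 2318 CPM in A549R cytosol with DMSO and 4417, 3902 and 3252 CPM in A549 cytosol with DMSO. Its main end was listed in 0 of 9 H358 libraries, where 5 reads, the least a list holds, were worth 0.847 to 3.46 CPM. These 2 genes were not tested against H358, because a test needed an end listed in every library.

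ALDH3A1, which oxidizes aromatic and lipid-derived aldehydes, showed the largest of the 5 tested differences. It had 1132, 1423 and 1132 CPM in A549R cytosol with DMSO, 1025, 1249 and 805 CPM in A549 cytosol with DMSO, and 4.86, 2.54 and 5.67 CPM in H358 with DMSO. The lowest A549 library was far above the highest H358 library. The fitted difference was 8.2 ± 0.36 log2 (SE), or 293-fold, for A549R over H358 (edgeR, Benjamini-Hochberg adjusted p = 4.77e-13) and 7.94 ± 0.36 log2, or 246-fold, for A549 over H358 (adjusted p = 6.09e-13).

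NQO1 reduces quinones with NADPH and is the most used readout of NRF2 activity. It had 4961, 4643 and 3626 CPM in A549R cytosol with DMSO, 3362, 2932 and 2680 CPM in A549 cytosol with DMSO, and 894, 922 and 907 CPM in H358 with DMSO. TXNRD1, the cytosolic thioredoxin reductase, had 459, 524 and 492 CPM in A549R, 625, 683 and 438 CPM in A549, and 193, 264 and 137 CPM in H358, all with DMSO. The lines' ranges were separate from that of H358 for both genes.

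GCLC and GCLM are the catalytic and the modifier subunit of glutamate-cysteine ligase, which takes the first step of glutathione synthesis. GCLC had 71.2, 58.0 and 80.1 CPM in A549R, 113, 109 and 66.4 CPM in A549, and 22.9, 21.8 and 15.1 CPM in H358, with DMSO in each. GCLM had 149, 197 and 158 CPM in A549R, 138, 162 and 136 CPM in A549, and 30.5, 40.5 and 26.8 CPM in H358, again with DMSO. Each A549 and A549R library lay above each H358 DMSO library for both subunits.

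Of the 5 ends tested, 5 were higher in A549R than in H358, where 24.8% of all 11137 ends tested were higher and 49.5% differed either way (edgeR, adjusted p under 0.05). The fold differences of A549R over H358 were 5.21 for GCLM, 4.94 for NQO1, 3.50 for GCLC and 2.52 for TXNRD1, with adjusted p between 5.34e-09 and 0.000422. For A549 over H358, 5 of 5 were higher against a background of 25.4% higher and 50.8% either way, and the folds were 4.87 for GCLC, 4.52 for GCLM, 3.36 for NQO1 and 2.99 for TXNRD1 (edgeR, adjusted p between 2.17e-08 and 7.72e-05). The median log2 difference over the 5 was 2.30 for A549R and 2.18 for A549, against 0.00 and −0.01 over all ends. With the A549R and H358 groups fitted alone, the A549R differences were smaller: 1.54 log2 for GCLM, 1.48 for NQO1, 0.95 for GCLC, 7.36 for ALDH3A1 and 0.49 for TXNRD1. TXNRD1 then no longer passed (edgeR adjusted p = 0.128), nor did it over all peaks, which include ends not listed in every library, at 0.46 log2 for ends averaging at least 5 reads (adjusted p = 0.316) and 0.54 log2 without a minimum (0.208). The other 4 differences, and all 5 of A549 over H358, passed in these settings too. Cell line, extract and sequencing experiment differ together here, and for A549 also list kind, and cannot be told apart. EPCAM differed from H358 by −5.69 log2 in A549R and −3.95 log2 in A549, and VIM, a mesenchymal marker, was higher by 2.89 and 2.34 log2; their part in the result was not tested.

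**Figure D1:**
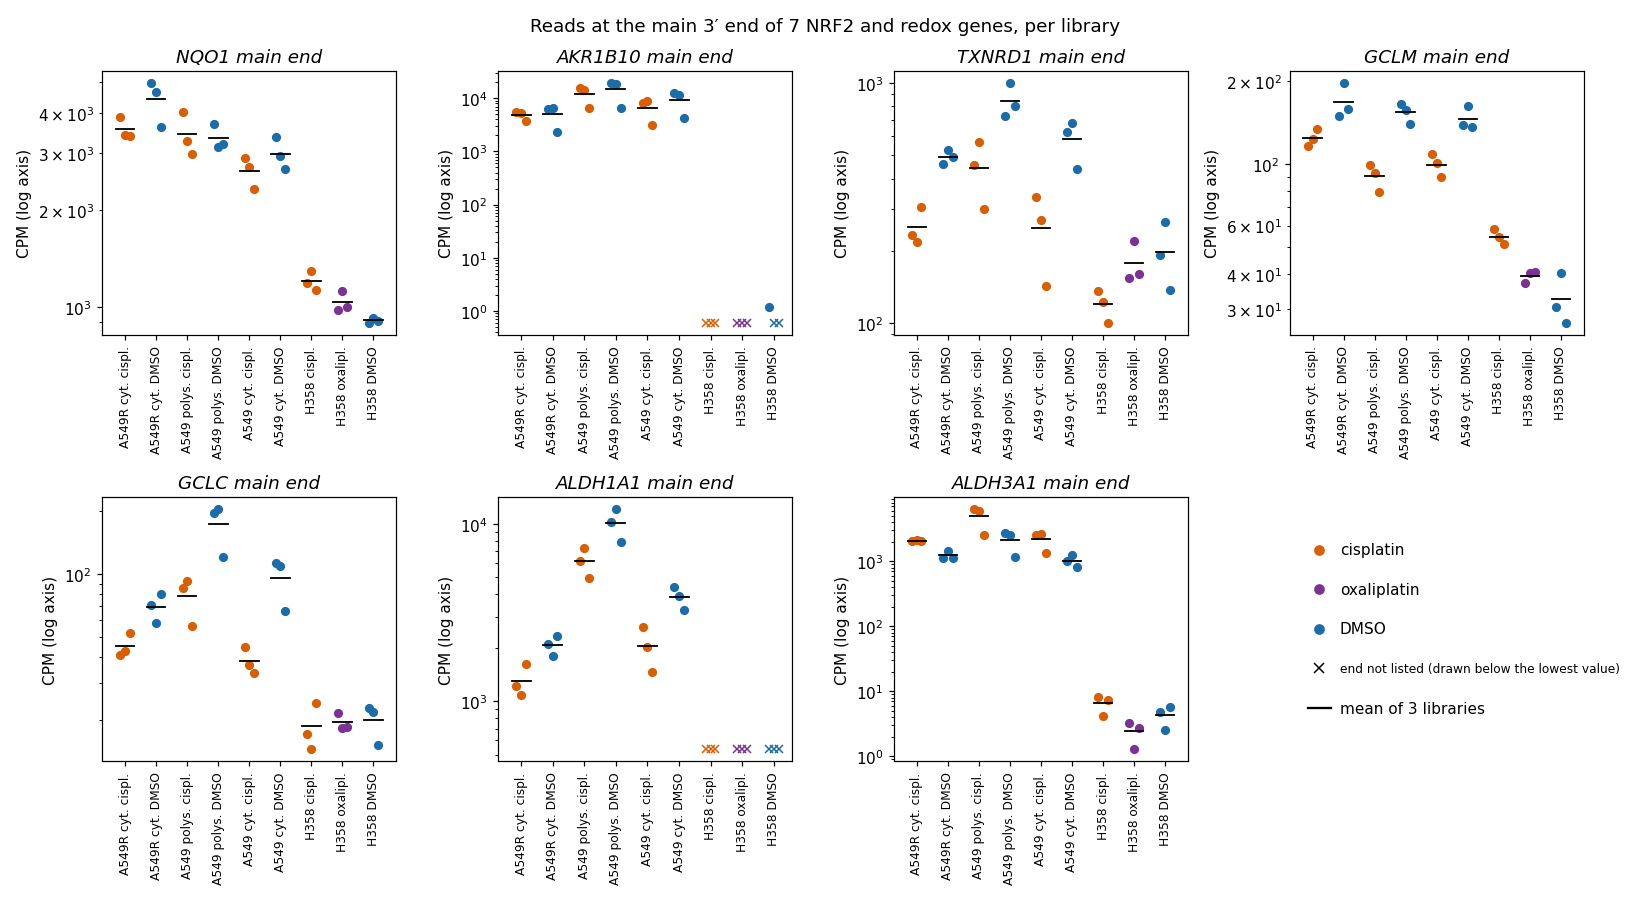
Level of the main end of each of the 7 genes in every library, in CPM on a log axis, by group; points are libraries, bars are means of 3 libraries, and crosses mark libraries that do not list the end. AKR1B10 and ALDH1A1 stand at 1077 CPM or more in every A549R and A549 library while H358 has 1 listed AKR1B10 value, at 1.21 CPM, and the ALDH3A1 points of H358 lie under 10 CPM.

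The order of the levels over the 9 groups differed between genes. NQO1 averaged highest in A549R cytosol with DMSO, at 4410 ± 697 CPM (SD, n = 3). The ranges of neighbouring A549 and A549R groups in its order overlapped throughout, so neighbouring places are not resolved beyond the libraries' spread. Groups farther apart could be separate, as A549R cytosol with DMSO (3626 to 4961 CPM) was from A549 cytosol with DMSO (2680 to 3362 CPM). TXNRD1 was highest in A549 polysomes with DMSO, at 843 CPM on average, with no library in common with the range of A549 cytosol with DMSO, at 582 CPM. ALDH1A1 formed 3 separate steps at the top: 10074 CPM in polysomes with DMSO, 6157 CPM in polysomes with cisplatin and 3857 CPM in cytosol with DMSO. ALDH3A1 was the one gene of the 7 with its highest average under cisplatin, at 4886 CPM in A549 polysomes. H358 groups held the lowest places for each gene. There GCLC (18.6 to 19.9 CPM) overlapped between all neighbouring groups. The 3 NQO1 ranges (1202 CPM with cisplatin, 1032 CPM with oxaliplatin and 907 CPM with DMSO) were separate on this scale, but the sign of the fitted platinum changes depended on the setting.

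In A549 cytosol with cisplatin, GCLC, TXNRD1 and ALDH1A1 fell and ALDH3A1 rose, so 4 of 7 passed the test, 3 lower and 1 higher. Over all 16439 ends tested, 7.23% passed, 3.94% lower and 3.29% higher. GCLC had 44.5, 36.5 and 33.5 CPM with cisplatin, against 113, 109 and 66.4 CPM with DMSO. The groups did not overlap, and the log2 change was −1.27 ± 0.22 (SE), or 2.41-fold lower (edgeR, adjusted p = 0.00482). This call held under every alternative run for it.

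TXNRD1 had 336, 269 and 144 CPM with cisplatin and 625, 683 and 438 CPM with DMSO, with no overlap; it was 2.24-fold lower (log2 change −1.16 ± 0.25, edgeR adjusted p = 0.0145). ALDH1A1 had 2618, 2032 and 1460 CPM with cisplatin and 4417, 3902 and 3252 CPM with DMSO, again without overlap, and was 1.82-fold lower (log2 change −0.86 ± 0.21, edgeR adjusted p = 0.0236). ALDH3A1 went the other way, with 2558, 2638 and 1347 CPM under cisplatin and 1025, 1249 and 805 CPM under DMSO. Every cisplatin library of ALDH3A1 exceeded every DMSO library, by 2.22-fold in the fit (log2 change 1.15 ± 0.23, edgeR adjusted p = 0.00923).

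GCLM had 109, 101 and 89.4 CPM with cisplatin and 138, 162 and 136 CPM with DMSO, also without overlap, at a log2 change of −0.48 ± 0.16 (edgeR adjusted p = 0.0864). Same-numbered libraries of these groups deviated together, and with the replicate number as a block GCLM passed as well (edgeR adjusted p = 0.0429), which made 5 of 7. The block spans the A549R libraries too, and no share of all ends is given for that setting. NQO1 had a log2 change of −0.11 ± 0.15 and AKR1B10 one of −0.42 ± 0.44, both with overlapping libraries. The median over the 7 was −0.48 log2, against 0.01 over all ends. Without the second DMSO library of A549, TXNRD1 no longer passed (log2 change −1.03, edgeR adjusted p = 0.0698). ALDH3A1 no longer passed without the second cisplatin library (0.98 log2, edgeR adjusted p = 0.0517), and ALDH1A1 fell out without the first DMSO (adjusted p = 0.0828), second DMSO (0.0772), second cisplatin (0.0845) or the third cisplatin library (0.0959), and without all A549 libraries numbered 3 (edgeR adjusted p = 0.065). Over all peaks averaging at least 5 reads, TXNRD1 (edgeR adjusted p = 0.119), ALDH1A1 (0.138) and ALDH3A1 (0.089) did not pass.

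**Figure D2:**
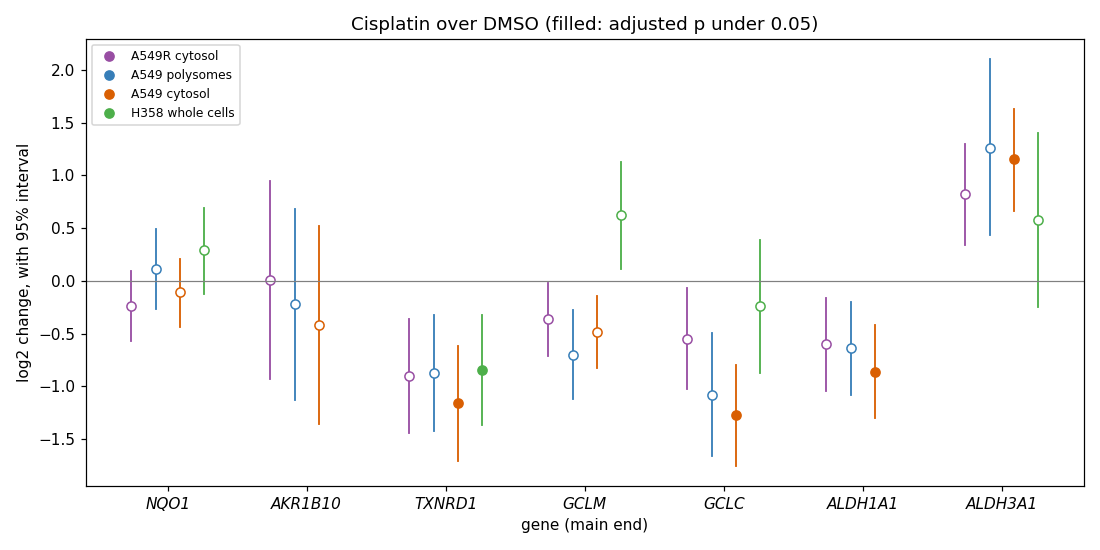
Log2 change of each tested main end with cisplatin against DMSO in A549R cytosol, A549 polysomes, A549 cytosol and H358 whole cells, with 95% confidence intervals from edgeR; filled points passed an adjusted p of 0.05. In A549 cytosol GCLC, at −1.27, lies lowest of the 7 genes and ALDH3A1, at 1.15, highest.

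In A549R cytosol, none of the 7 passed the test for cisplatin, against 4.54% of all 16439 ends, 2.45% higher and 2.1% lower (edgeR, adjusted p under 0.05). At an unadjusted p under 0.05 there were 5 of 7, against 3585 of all 16439 ends (edgeR), and DESeq2 called 2. The share of all ends called by DESeq2 is not given. ALDH3A1 had 2022, 2133 and 2058 CPM with cisplatin and 1132, 1423 and 1132 CPM with DMSO. TXNRD1 had 232, 218 and 305 CPM with cisplatin and 459, 524 and 492 CPM with DMSO. Neither gene's groups overlapped; the log2 changes were 0.82 ± 0.23 (edgeR adjusted p = 0.0517) for ALDH3A1 and −0.90 ± 0.25 (adjusted p = 0.0572) for TXNRD1.

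These A549R libraries were also taken as paired by number, and with the block both genes passed, ALDH3A1 at 0.84 log2 (edgeR adjusted p = 0.009) and TXNRD1 at −0.88 log2 (adjusted p = 0.0362). The share of all ends called with the block is not given. That block also joins A549 to A549R libraries, and under cisplatin those numbered 3 did not deviate together (correlation −0.003). Without all A549 libraries numbered 3, which only share the spread of this fit, 3 of 7 passed: TXNRD1 (adjusted p = 0.00512), ALDH3A1 (0.00463) and ALDH1A1 (0.0455, edgeR). Of all 16439 ends, 1183 passed in that setting, more than in the main one. Without the third A549R cisplatin library alone, TXNRD1 (−1.07 log2, edgeR adjusted p = 0.0383) and ALDH1A1 (−0.80 log2, adjusted p = 0.0438) passed. TXNRD1 also passed without the first A549 cisplatin library (edgeR adjusted p = 0.0439). Leaving out the third A549 DMSO library brought in TXNRD1 (0.045) and ALDH3A1 (0.0449), as did leaving out the third A549 cisplatin library (edgeR adjusted p = 0.0137 and 0.013). The median over the 7 was −0.36 log2, against 0.02 over all ends.

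No difference between A549R and A549 in their response to cisplatin was shown for any of the 7 genes: 0 of 7 passed, as did 0% of all ends (edgeR), with 0 by DESeq2. At an unadjusted p under 0.05 there was 1, against 307 of all 16439 ends (edgeR). The largest difference was that of GCLC, 0.72 log2 with a 95% interval of 0.06 to 1.39 and an adjusted p of 1. Its values in A549R were 40.8, 42.8 and 52.4 CPM with cisplatin and 71.2, 58.0 and 80.1 CPM with DMSO.

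Between the lines in DMSO, ALDH1A1 alone passed, lower in A549R: 2104, 1793 and 2318 CPM in A549R against 4417, 3902 and 3252 CPM in A549. The groups did not overlap and the difference was 1.88-fold (log2 difference −0.91 ± 0.21, edgeR adjusted p = 0.0368). That was 1 of 7, against 2.1% of all ends, 1.09% higher and 1% lower. NQO1 was 0.55 ± 0.15 log2 higher in A549R without passing (edgeR adjusted p = 0.0812), although its libraries did not overlap. In the same libraries the markers KRT18 (−1.25 log2, 2253 ± 507.5 CPM in A549R and 5339 ± 2193 CPM in A549) and VIM (0.55 log2, 1735 ± 242.1 CPM in A549R and 1177 ± 239.3 CPM in A549) did not overlap between the lines either, without passing (edgeR adjusted p = 0.071 and 0.146; SD, n = 3). EPCAM was at −1.74 log2 with overlap (edgeR adjusted p = 0.334) and COL1A1 at 0.99 log2 without (adjusted p = 0.283). The part of these markers in the result was not tested.

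With the replicate block, NQO1 (0.54 log2, edgeR adjusted p = 0.0128) and AKR1B10 (−0.88 log2, adjusted p = 0.0116) passed beside ALDH1A1, for 3 of 7, with no share of all ends given for that setting. ALDH1A1 lost its call without the first (edgeR adjusted p = 0.142) or second A549 DMSO library (0.12), the first (0.118) or second A549R DMSO library (0.157), the first A549R cisplatin library (0.0506) or the second A549 cisplatin library (0.0599). NQO1 passed without the third A549R DMSO library (0.66 log2, edgeR adjusted p = 0.0334). Without the A549 libraries numbered 3, ALDH1A1 (−1.03 log2, edgeR adjusted p = 0.00564) and AKR1B10 (−1.24 log2, adjusted p = 0.0391) passed, against 858 of all 16439 ends. Under cisplatin 0 of 7 differed between the lines, against 1.64% of all ends, 0.937% higher and 0.706% lower (edgeR), with 0 by DESeq2. At an unadjusted p under 0.05 there were 2, against 2382 of all 16439 ends (edgeR). ALDH1A1 was then at −0.65 log2 (edgeR adjusted p = 0.147), and it passed without the third A549 cisplatin library (−0.84 log2, adjusted p = 0.0465).

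In A549 heavy polysomes, which hold mRNA bound by several ribosomes, 0 of 7 passed for cisplatin and 0.704% of all 21585 ends did, 0.422% higher and 0.283% lower (edgeR), with 1 by DESeq2. The share of all ends called by DESeq2 is not given here either. At an unadjusted p under 0.05 there were 5 of 7, against 3358 of all 21585 ends (edgeR). ALDH3A1 had 6337, 5823 and 2499 CPM with cisplatin and 2736, 2520 and 1183 CPM with DMSO. GCLC had 86.0, 92.3 and 56.2 CPM with cisplatin and 196, 205 and 121 CPM with DMSO. Library 3 was the lowest of both groups for both genes, so the ALDH3A1 groups overlapped while those of GCLC did not.

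With libraries paired by number, 5 of 7 polysome ends passed for cisplatin: ALDH3A1 at 1.24 log2 (edgeR adjusted p = 0.000168), ALDH1A1 at −0.64 (0.00122), GCLC at −1.08 (0.00202), TXNRD1 at −0.90 (0.00911) and GCLM at −0.70 (0.0131). Without both polysome libraries numbered 3, 5 passed too, against 1357 of all 21585 ends. For the block no such background is given. Without the block the same 5 had adjusted p between 0.105 and 0.172. NQO1 was at 0.11 ± 0.17 log2 and AKR1B10 at −0.22 ± 0.40 log2.

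Heavy polysomes were then set against cytosol of A549, which asks which RNAs were more frequent among those being translated. In DMSO, ALDH1A1 and GCLC were higher in polysomes, 2 of 7, where 39.7% of all 17308 ends differed, 19.9% higher and 19.8% lower. ALDH1A1 had 10206, 12127 and 7887 CPM in polysomes and 4417, 3902 and 3252 CPM in cytosol. The groups were well apart, at 2.39-fold (log2 difference 1.26 ± 0.21, edgeR adjusted p = 0.000541). GCLC had 196, 205 and 121 CPM in polysomes and 113, 109 and 66.4 CPM in cytosol, 1.65-fold higher (0.72 ± 0.25 log2, edgeR adjusted p = 0.0344).

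The polysome and cytosol libraries were taken as paired by number, which the labels do not state. Cytosol DMSO library 1 deviated more like a polysome DMSO library of another number (correlation 0.39) than like library 1 (0.282). With the block AKR1B10 (0.54 log2, edgeR adjusted p = 0.000751), ALDH3A1 (0.86 log2, 0.000161) and TXNRD1 (0.45 log2, 0.044) passed as well, for 5 of 7. No share of all ends is given for that setting. GCLC did not pass without the second (edgeR adjusted p = 0.0509) or the third cytosol DMSO library (0.128), or the first (0.0962) or second polysome DMSO library (0.126). ALDH3A1 had 2736, 2520 and 1183 CPM in polysomes and 1025, 1249 and 805 CPM in cytosol (0.93 ± 0.36 log2, edgeR adjusted p = 0.0548), and it passed without the third polysome DMSO library (1.21 log2, adjusted p = 0.0124). Without all A549 libraries numbered 3, 4 passed, ALDH1A1, GCLC, ALDH3A1 (1.06 log2, edgeR adjusted p = 5.37e-06) and AKR1B10 (0.55 log2, adjusted p = 0.000711). Of all 17308 ends, 8826 passed in that setting. GCLC also lost its call over all peaks (edgeR adjusted p = 0.113 for ends averaging at least 5 reads and 0.303 without a minimum) and with the groups alone (0.0601). VIM (1.31 log2, edgeR adjusted p = 0.000515) and COL1A1 (1.55 log2, adjusted p = 0.0186) were higher in polysomes in the same libraries, and list kind differed in 2 of the 3 pairs; their part in the result was not tested. NQO1 at 0.04 ± 0.15 log2 and GCLM at −0.04 ± 0.15 log2 had 95% intervals of −0.29 to 0.37 and −0.37 to 0.29.

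Under cisplatin 3 of 7 were higher in polysomes, where 43.3% of all ends differed and 21% were higher. ALDH1A1 had 6165, 7328 and 4979 CPM in polysomes and 2618, 2032 and 1460 CPM in cytosol, 2.69-fold higher (edgeR adjusted p = 0.000213). GCLC was 1.82-fold higher (adjusted p = 0.0152) and ALDH3A1 1.99-fold higher (edgeR adjusted p = 0.0396). The block brought in AKR1B10 (0.73 log2, edgeR adjusted p = 5.1e-05) and TXNRD1 (0.66 log2, adjusted p = 0.00545), again 5 of 7 and without a share of all ends. Here too cytosol library 1 deviated more like a polysome library of another number (correlation 0.425) than like library 1 (0.284). Without all A549 libraries numbered 3, 5 passed, against 8650 of all 17308 ends. GCLC lost its call without the second (edgeR adjusted p = 0.0503) or the third cytosol cisplatin library (0.0524). ALDH3A1 lost its call without the first cytosol DMSO library (edgeR adjusted p = 0.0505), the first (0.0609) or the third cytosol cisplatin library (0.139), or the first (0.112) or second polysome cisplatin library (0.0891). TXNRD1 passed without the first cytosol cisplatin library (edgeR adjusted p = 0.0388) or the third polysome cisplatin library (0.0206). Over all peaks GCLC did not pass (edgeR adjusted p = 0.0694 for ends averaging at least 5 reads and 0.107 without a minimum), nor did ALDH3A1 at that average (0.116). VIM was higher by 1.35 log2 and COL1A1 by 1.37 log2 in these polysome libraries; their part in the result was not tested. The comparisons in DMSO and in cisplatin share a fit but no library.

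**Figure D3:**
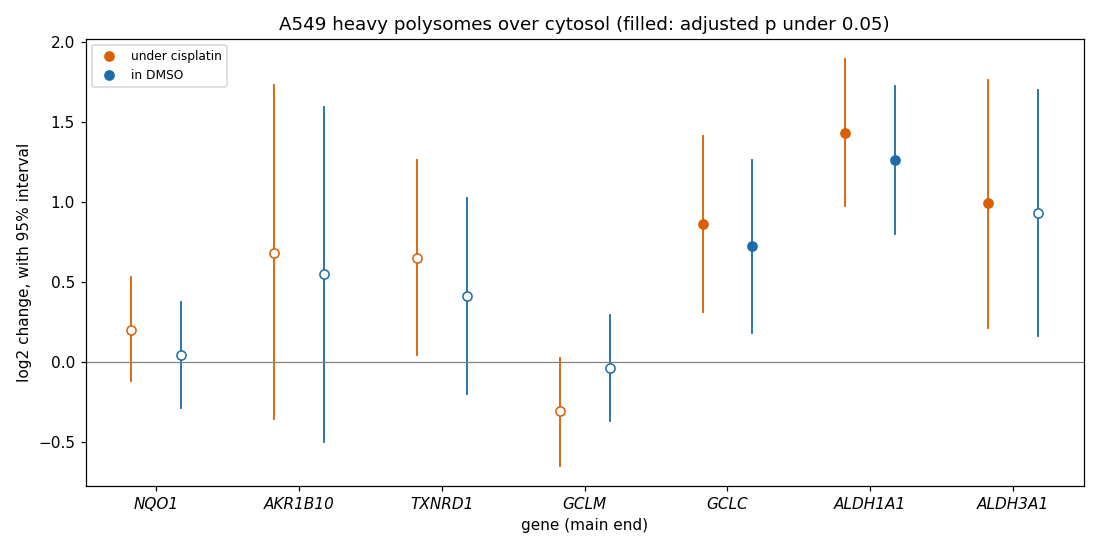
Log2 difference of each main end between A549 heavy polysomes and cytosol, under cisplatin and in DMSO, with 95% confidence intervals from edgeR; filled points passed an adjusted p of 0.05. ALDH1A1 lies highest, at 1.43 under cisplatin and 1.26 in DMSO, while the NQO1 and GCLM intervals cross 0 in both.

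In H358 whole cells with cisplatin, TXNRD1 was the 1 of 5 tested ends that passed, lower, against 26.2% of all 14358 ends, 14.4% lower: it had 136.7, 123 and 101 CPM with cisplatin and 193, 264 and 137.3 CPM with DMSO. The lowest DMSO library stood just above the highest cisplatin library, and the log2 change was −0.84 ± 0.25, or 1.79-fold lower (edgeR adjusted p = 0.017). It did not pass without the second DMSO library (−0.57 log2, edgeR adjusted p = 0.111), the second cisplatin library (adjusted p = 0.0665) or the third (0.0761). GCLM had 58.1, 54.7 and 51.3 CPM with cisplatin and 30.5, 40.5 and 26.8 CPM with DMSO, without overlap, at 0.62 ± 0.25 log2 (edgeR adjusted p = 0.068). It passed without the second DMSO library (0.82 log2, edgeR adjusted p = 0.0297) or the second oxaliplatin library (adjusted p = 0.0447), and with RLE scaling (0.0498), DESeq2 (0.0376) or the replicate block (edgeR adjusted p = 0.0204). These groups were not taken as paired by number, so the block is given for completeness only. GCLM passed in 5 of 17 alternatives, over which its change ran from 0.04 to 0.82 log2. With 1 library left out it stayed between 0.49 and 0.82 log2.

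NQO1 had 1186, 1290 and 1130 CPM with cisplatin and 894, 922 and 907 CPM with DMSO in H358. All cisplatin libraries were above all DMSO libraries, and the fitted change, scaled over the ends of the H358 fit, was 0.29 ± 0.20 log2 without passing (edgeR adjusted p = 0.299). Over 17 alternatives the fitted change ran from −0.31 to 0.33 log2 and passed in 0 of them, so its sign depended on the setting. With 1 library left out it stayed between 0.26 and 0.33 log2. GCLC (−0.24 ± 0.31 log2) and ALDH3A1 (0.58 ± 0.40 log2) overlapped between the groups. The median over the 5 was 0.29 log2, against −0.04 over all ends. KRT18, EPCAM and VIM fell with cisplatin in the same libraries, at log2 changes of −0.89, −1.04 and −1.26; their part in the result was not tested.

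Oxaliplatin, a platinum compound with a diaminocyclohexane and an oxalate ligand in place of the ammine and chloride ligands of cisplatin, was used in H358 at the same 100 µM. None of the 5 ends passed against DMSO, where 5.32% of all ends did, 1.27% higher and 4.05% lower (edgeR), with 0 by DESeq2. At an unadjusted p under 0.05 there were 0 of 5, against 3019 of all 14358 ends (edgeR). The 95% intervals of the log2 change were −0.27 to 0.54 for NQO1, −0.73 to 0.30 for TXNRD1, −0.29 to 0.72 for GCLM, −0.70 to 0.50 for GCLC and −1.67 to 0.03 for ALDH3A1. The cisplatin changes of NQO1, GCLM and GCLC fall inside these intervals and those of TXNRD1 and ALDH3A1 outside them. Over all peaks averaging at least 5 reads, NQO1 turned to −0.56 log2 (edgeR adjusted p = 0.0105), and TXNRD1 (−0.91 log2, 0.037) and ALDH3A1 (−1.54 log2, 0.0346) passed as lower.

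Set against each other over 5 ends, the 2 compounds differed at 1, against 19.2% of all ends, 9.74% higher and 9.44% lower with cisplatin. ALDH3A1 had 8.25, 4.15 and 7.42 CPM with cisplatin and 3.22, 1.31 and 2.72 CPM with oxaliplatin, 2.63-fold higher (1.40 ± 0.43 log2, edgeR p adjusted over all 14358 ends = 0.025). The groups did not overlap, but the counts were low, and the call was lost without the first (edgeR adjusted p = 0.142) or the third cisplatin library (0.065) or the second oxaliplatin library (0.0781), and over all peaks without a minimum (0.124). TXNRD1 stood at −0.63 log2 with a 95% interval of −1.16 to −0.11 (edgeR adjusted p = 0.0829), and passed with the groups alone (adjusted p = 0.0491). For the other 3 the intervals were −0.26 to 0.56 for NQO1, −0.10 to 0.92 for GCLM and −0.78 to 0.50 for GCLC. The oxaliplatin libraries were all of the short kind and the others all of the long kind, which cannot be told apart from the compound.

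The response to cisplatin differed between A549 cytosol and H358 whole cells for GCLM, 1 of 5, against 5.81% of all ends, 3.09% in the lower direction. GCLM had 109, 101 and 89.4 CPM with cisplatin and 138, 162 and 136 CPM with DMSO in A549. In H358 it had 58.1, 54.7 and 51.3 CPM with cisplatin and 30.5, 40.5 and 26.8 CPM with DMSO. Its log2 change was −0.48 for A549 in the cytosol fit and 0.62 in the H358 fit, neither of which passed alone. The difference of the responses was −1.27 ± 0.27 log2 (edgeR adjusted p = 0.00638). It comes from the fit of H358 with cytosol, which has its own scaling, so the separate changes do not subtract to it exactly. Over all peaks it was −0.6 log2 for ends averaging at least 5 reads (edgeR adjusted p = 0.443) and −0.62 log2 without a minimum (adjusted p = 1), and did not pass. GCLC differed by −1.20 ± 0.36 log2 without passing (edgeR adjusted p = 0.0521). It passed without the third A549 DMSO library (−1.42 log2, edgeR adjusted p = 0.0169), without the third A549R DMSO library (adjusted p = 0.0498) and without all A549 libraries numbered 3 (adjusted p = 0.0371). NQO1 (−0.56 log2), TXNRD1 (−0.48) and ALDH3A1 (0.41) did not pass. Extract, line and list kind differ together in this contrast and cannot be told apart.

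Other genes of the pathway were taken from a list of 32, of which 27 could be located. In DMSO, 18 of 22 tested were higher in A549 than in H358 and 2 were lower, where 25.4% of all ends were higher and 25.4% lower. GPX2, a glutathione peroxidase of epithelia, was 8.18 log2 higher and HMOX1, haem oxygenase 1, 4.68 log2 higher, while GPX4, which reduces lipid peroxides, was at −1.1 log2 and GSS, glutathione synthetase, at −0.65 log2. For A549R over H358 the counts were 17 higher and 2 lower of 22, against 24.8% and 24.7% of all ends, led by GPX2 at 7.85 and SRXN1, sulfiredoxin, at 3.71 log2, with GPX4 at −1.15 and GSS at −1.01 log2. The medians over the 22 were 1.14 log2 in A549R and 1.31 log2 in A549, against 0.00 and −0.01 over all ends. These values come from the fit of H358 with cytosol. With the A549R and H358 groups fitted alone, the A549R differences of all tested members were smaller. Pathway counts and medians in that setting are not given.

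In H358 cisplatin raised 7 and lowered 4 of the 22 (edgeR, adjusted p under 0.05), where 11.8% of all ends rose and 14.4% fell. The 3 haem and iron genes of the list rose, as did 2 of 3 thioredoxin genes, and 4 of the 6 NADPH genes fell. GPX2 averaged 62.2 ± 11.6 CPM with cisplatin and 4.44 ± 1.62 CPM with DMSO (SD, n = 3 each), 12.5-fold higher (edgeR adjusted p = 7.44e-08). OSGIN1, an oxidative stress induced growth inhibitor, averaged 73.5 ± 8.25 CPM with cisplatin and 12.8 ± 2.72 CPM with DMSO, 5.30-fold higher (edgeR adjusted p = 1.18e-06). TKT, transketolase, was 3.04-fold lower (edgeR adjusted p = 2.02e-05) and ME1, malic enzyme 1, 2.99-fold lower (adjusted p = 0.00157). Oxaliplatin changed 0 of the 22, against 5.32% of all ends. Cisplatin exceeded oxaliplatin in 6 and lay under it in 3, against 9.74% and 9.44% of all ends, with GPX2 at 3.37 and OSGIN1 at 2.13 log2 and ME1 at −1.29 and IDH1, isocitrate dehydrogenase 1, at −1.03 log2.

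Of 25 listed pathway genes tested in A549 cytosol, 1 rose and 6 fell with cisplatin, where 3.29% of all ends rose and 3.94% fell. GSS averaged 103 ± 9.19 CPM with cisplatin and 65.4 ± 10.4 CPM with DMSO (edgeR adjusted p = 0.0252). ME1 fell by 1.54 log2 (edgeR adjusted p = 0.00438), and HMOX1 averaged 85.0 ± 8.12 CPM with cisplatin and 203 ± 40.3 CPM with DMSO (adjusted p = 0.0275). In A549R, where 4.54% of all ends passed, GSS was higher by 0.99 log2 and ME1 (−1.32) and SLC7A11, the cystine carrier (−1.20), were lower. FTL, ferritin light chain, was the 1 of 25 that differed between the lines in DMSO, at −0.98 log2 in A549R (edgeR adjusted p = 0.0465), against 2.1% of all ends. In polysomes cisplatin changed 0 of 25 and 0.704% of all ends (edgeR).

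Between extracts of A549 in DMSO, 6 of 25 were higher and 5 lower in polysomes, near the 19.9% and 19.8% of all ends, with the pentose phosphate enzymes TKT at 1.48 and PGD at 1.43 log2 and the ferritin chains FTH1 at −2.03 and FTL at −1.83 log2. Under cisplatin it was 8 higher and 5 lower, against 21% and 22.3% of all ends, with PGD at 1.57, TKT at 1.51, FTL at −2.02 and FTH1 at −1.92 log2. The median log2 difference over the 25 was 0.31 in DMSO and 0.41 under cisplatin.

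**Figure D4:**
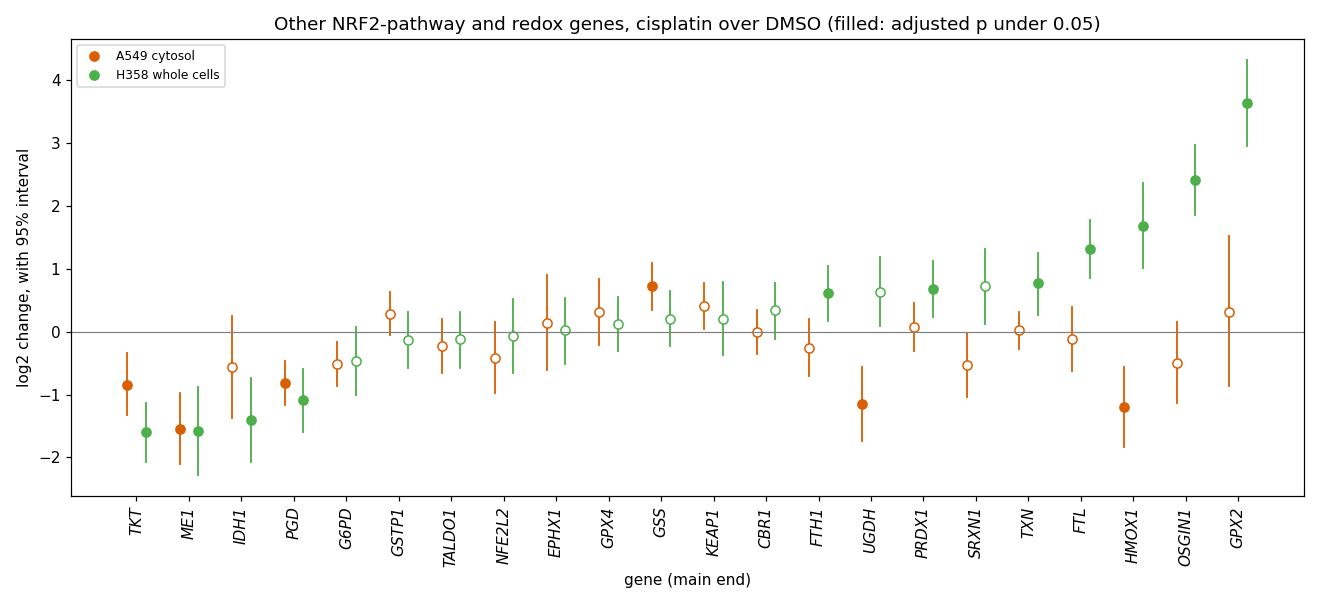
Log2 change with cisplatin against DMSO of the 22 listed pathway genes tested in both A549 cytosol and H358 whole cells, ordered by the change in H358, with 95% confidence intervals from edgeR; filled points passed an adjusted p of 0.05. In H358 GPX2 stands farthest up, at 3.64, and in A549 ME1 stands farthest down, at −1.54.

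Ends other than the main one were counted next, since the study asked about ends inside genes. NQO1 had 10 ends in all, AKR1B10 17, TXNRD1 26, GCLM 9, GCLC 15, ALDH1A1 22 and ALDH3A1 12. An end was described where it was listed in all 3 libraries of a group and held at least 5% of the gene's counts in a group, which none of AKR1B10 and ALDH3A1 did. The NQO1 end at chr16:69743297-69744039 (hg19, minus strand) lies downstream of the main end at chr16:69744083-69745195 and held 6.35% to 12.6% of the gene's counts by group. In GCLM the main end is at chr1:94353781-94354722 (minus strand), an end downstream of it held 6.73% to 17.6%, and one 13359 bases upstream, within the gene's span, held 7.23% to 17.1%.

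TXNRD1, with its main end at chr12:104742145-104744367 (plus strand), had the most. An end 31524 bases upstream, at chr12:104712680-104712843, was listed in 27 libraries. It averaged 38.9 CPM in H358 with cisplatin, the lowest group, and 296.5 CPM in A549 polysomes with DMSO, the highest. Another, at chr12:104658966-104659774, was listed in 13 libraries and held up to 68.3% by group; it lies where RefSeq places RPL18AP3, a ribosomal protein pseudogene of 624 bases, by distance from the gene's 3′ end, so its reads may not be TXNRD1 reads. With the ends at RPL18AP3 and EID3 left out of the total, the end 31524 bases upstream held 14.9% to 27.6% of the counts by group. An end 18941 bases upstream was listed in 6 libraries, all A549 cytosol, at 5.82% with cisplatin and 5.17% with DMSO on the same total. The 14.9% of the end 31524 bases upstream was in H358 with cisplatin. The total there included an end at chr12:104666291-104666805, averaging 89.3 CPM in that group but listed in only 4 libraries. Against the main end alone, the share in H358 was 24.5% ± 5.74 with cisplatin and 29.4% ± 3.57 with DMSO (SD, n = 3 each), with overlap. GCLC, with its main end at chr6:53362111-53363334 (minus strand), had an end 1316 bases upstream at 12.1% to 15.4% and one 19762 bases upstream, listed in 15 libraries, at up to 13.8%.

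The main ends of the rest are at chr7:134225623-134226773 (plus) for AKR1B10, chr9:75515457-75516275 (minus) for ALDH1A1 and chr17:19641242-19641779 (minus) for ALDH3A1. ALDH1A1 had an end 18054 bases upstream that was listed in 14 libraries, and in H358 with DMSO or cisplatin it was the only end of the gene listed. No hg19 annotation was used, so whether these ends lie in exons, introns or UTRs is not given.

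The share of a gene's counts at ends other than the main one was compared between groups, over ends listed in every library of both. None of the 69 tests passed (exact permutation test, two-sided, lowest adjusted p = 0.288), and 3 libraries against 3 cannot go below p = 0.1. In A549 the share was lower in polysomes than in cytosol, with no overlap, for AKR1B10, TXNRD1, GCLM, ALDH1A1 and ALDH3A1, in DMSO and under cisplatin. For NQO1 and GCLC the polysome and cytosol ranges overlapped under both treatments. The TXNRD1 share in DMSO was 29.1% ± 2.43 in polysomes and 36.0% ± 1.15 in cytosol, and for GCLM 36.0% ± 2.29 in polysomes and 42.0% ± 3.08 in cytosol (SD, n = 3 each). No share over other genes is given beside these. All A549 cytosol lists were of the short kind and most polysome lists of the long kind. The part of list kind in these shares was not tested. Cisplatin left the TXNRD1 share in A549 cytosol at 40.4% ± 1.40 with cisplatin and 38.6% ± 0.956 with DMSO, with overlap. This comparison used 7 other ends and the polysome comparison in DMSO 8, so their cytosol DMSO shares are not the same. With the ends at RPL18AP3 and EID3 left out, the share was 38.6% ± 1.66 with cisplatin and 38.4% ± 0.975 with DMSO.

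For each gene listed in all libraries, the end outside the 7 spans most like it was sought over the 9 group means, as the highest Pearson correlation of log2(CPM + 1) among 10271 ends. It was an end at chr14:39649687-39651536 (plus) for NQO1 at r = 0.995, at chr7:72891996-72892759 (minus) for TXNRD1 at 0.991, and at chr10:71873675-71874081 (minus) for ALDH3A1 at 0.997. For the ligase subunits it was chr12:7074502-7074882 (minus) for GCLC at 0.983 and chr21:45390338-45390364 (plus) for GCLM at 0.975. These are the highest of many values over 9 points that share cell line, extract and list kind, and the files give no gene names for them.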

How the data were processed

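RNA 3′ ends were measured in 27 libraries by 3′-seq, with 16 PCR cycles and single-end reads of 50 bases per the labels' protocols. The authors deposited one peak list per library, with a raw read count per peak of at least 5, as the values show. Bowtie2 2.2.5, SAMtools 1.1 and bedtools 2.17.0 are named in the submitters' processing notes, which also name the mouse build mm9; peak positions fit human hg19, which is used here. How peaks were called and filtered is not stated in the labels or lists.

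Peaks were merged where they overlapped on a strand. Counts of merged ends listed in every library of a fit were tested with edgeR 4.0.16 (quasi-likelihood test, TMM scaling, Benjamini-Hochberg adjustment over all ends of the fit, threshold 0.05) in R 4.3.3. One fit each held H358, cytosol, polysomes, polysomes with cytosol, and H358 with cytosol; groups of a fit share one spread. DESeq2 1.42.0 was an alternative, as were RLE scaling, all peaks with and without a mean count of 5, a replicate block, merging within 100 bases, summed ends, the compared groups alone, and leaving out each library in turn. Python 3.11.15 with pandas 2.3.3, SciPy 1.17.1 and matplotlib 3.10.9 did the rest. The edgeR test was run on simulated counts with known changes. It recovered 33% of 2-fold changes for H358 cisplatin against DMSO and 18% for A549 cytosol cisplatin against DMSO. Of 4-fold changes it recovered 92% in each. False calls made up 5.3% of calls in the H358 simulation and 7.56% in the A549 simulation. An end that did not pass may therefore still have changed by 2-fold. Library totals by group are between 3024814 and 11997535 reads, so ends of a few CPM rest on few reads; PCR duplicates are counted.

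Members and gene lists were chosen with earlier results of these data known. All 7 members are named; other ends are named at 5% of a gene's counts and 3 of 3 libraries of a group; of the pathway list, the 2 largest changes called in each direction are named. Spans of the pathway and marker genes were written by hand for hg19 and kept where chromosome and length (within 10%) matched RefSeq GRCh38.p14, with strand checked where the promoter table gives one. This left 27 of 32 pathway genes and 6 of 8 markers; MGST1, AKR1C1, AKR1C3, MAFG, SQSTM1, KRT8 and PECAM1 were left out. Labels give the same replicate numbers to all groups without saying that they pair. They were taken as pairs where every same-number correlation of deviations was over 0.1: cisplatin against DMSO in A549 cytosol (0.292 to 0.468), A549R cytosol (0.142 to 0.292) and polysomes (0.42 to 0.51), A549R against A549 in DMSO (0.114 to 0.208), polysomes against cytosol in DMSO (0.186 to 0.536) and under cisplatin (0.165 to 0.547), and oxaliplatin against DMSO in H358 (0.109 to 0.539). A correlation with another number could be higher, as for cytosol library 1 against polysomes. The block spans all groups of a fit. In the cytosol fit it also joins A549 and A549R under cisplatin, where the correlations ran from −0.003 to 0.185.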

Additional observations from a re-analysis of the deposited data

Results flagged for a closer look

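The cisplatin response of A549 cytosol was below that of H358 whole cells, by a test of the difference itself (edgeR interaction term, Benjamini-Hochberg adjusted), for 1 of 5 tested ends of the 7 genes and 8 of 22 of the pathway list, against 3.09% of all 11137 ends. Among the 7 genes this was GCLM, at −1.27 log2 (edgeR adjusted p = 0.00638). In the separate cytosol and H358 fits, which are scaled differently, its log2 change with cisplatin was −0.48 in A549 and 0.62 in H358. Over all peaks GCLM did not pass, at −0.6 log2 for ends averaging at least 5 reads (edgeR adjusted p = 0.443) and −0.62 log2 without a minimum (adjusted p = 1).

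In the pathway list it was HMOX1 at −3.05 log2 (adjusted p = 0.000223), OSGIN1 at −3.06 (0.000157), UGDH, which makes the sugar donor of glucuronidation, at −1.96 (0.00554), FTL at −1.59 (0.00707), GPX2 at −3.47 (0.00977), SRXN1 at −1.41 (0.0269), FTH1 at −1.03 (0.0463) and TXN, thioredoxin, at −0.91 (0.0471), all from edgeR. Whether the calls of these pathway genes hold over all peaks, where that of GCLM was lost, is not given. Over 27 alternatives the same difference ran from −0.65 to 0.12 log2 for NQO1 and from −1.42 to −0.55 log2 for GCLC. HMOX1 averaged 85.0 ± 8.12 CPM with cisplatin and 203 ± 40.3 CPM with DMSO in A549, and 27.9 ± 5.08 CPM with cisplatin and 8.17 ± 2.32 CPM with DMSO in H358 (SD, n = 3 each). Line, extract, experiment and list kind cannot be told apart in this difference, and KRT18, EPCAM and VIM fell with cisplatin in the same H358 libraries, at log2 changes of −0.89, −1.04 and −1.26; their part was not tested.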

How the results depend on the processing

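The 5 of 5 higher in A549 than in H358, and in A549R all but TXNRD1, kept their direction and call under every alternative run; TXNRD1 in A549R lost its call over all peaks (0.46 log2, edgeR adjusted p = 0.316, with the minimum and 0.54, 0.208, without) and with the groups alone (0.49, 0.128). Elsewhere the count of members called moved, and the cause was not tested. The number of all ends called moved too. For A549R cisplatin it was 747 of 16439 in the main setting and 1183 without all A549 libraries numbered 3. For the block and for DESeq2 it is not given. Where edgeR called 1 for cisplatin in H358, RLE scaling, DESeq2 and the replicate block gave 2, and leaving out a library gave 0 to 2. For oxaliplatin it called 0, all peaks with a mean count of 5 gave 3, and NQO1 turned to −0.56 log2 (adjusted p = 0.0105) against 0.13; leaving out a library gave 0 to 0. Cisplatin against oxaliplatin gave 1, and 2 with the block or the groups alone (0 to 1). A549 cytosol cisplatin gave 4, and 1 over all peaks with a mean count of 5 (2 to 4). A549R cisplatin gave 0, but 2 with DESeq2, all peaks without a minimum or the block, and 3 without all A549 libraries numbered 3 (0 to 2). A549R against A549 in DMSO gave 1, and 2 with DESeq2, with all peaks either way or without those libraries, and 3 with the block (0 to 2). Under cisplatin it gave 0, and 2 over all peaks with the minimum, 1 without it, 1 with the block and 1 without those libraries (0 to 1). Polysome cisplatin gave 0, 1 with DESeq2, and 5 with the block or without the polysome libraries numbered 3 (0 to 0). Polysomes against cytosol gave 2 in DMSO, with 1 over all peaks with the minimum, 5 with the block and 4 without the A549 libraries numbered 3 (1 to 3), and 3 under cisplatin, with 1, 5 with no minimum, 5 and 5 (1 to 4). The A549 and H358 response difference gave 1, 0 over all peaks either way, and 2 with RLE scaling, DESeq2, the block, merging within 100 bases, summed ends or without the A549 libraries numbered 3 (1 to 2). The A549R and A549 response difference stayed at 0 throughout. The shares could not pass in any setting, because their exact permutation test cannot go below p = 0.1. The settings without libraries numbered 3, and TXNRD1 shares without the ends at RPL18AP3 and EID3, were chosen after seeing the data. In comparisons not paired by number, the block is given for completeness only: the labels do not state that numbers pair. Ends under about 3.46 CPM can be missing from a list through depth alone.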

Other observations

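The end at the position of EID3, a gene that RefSeq places inside the TXNRD1 span, had 15.8, 15.4 and 7.08 CPM in A549 cytosol with cisplatin and 2.96, 3.58 and 2.83 CPM with DMSO. The groups did not overlap, and TXNRD1 itself was lower with cisplatin in the same libraries. It was picked out after its values were seen and was not tested alone.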
